A study of Mus musculus with 8 samples.

Results

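The bile acid synthesis enzymes described here are 10 genes, chosen by symbol from the 23337 genes in the count files, and all 10 passed the filter on low counts that left 14328 genes for testing. They are Cyp7a1, Cyp8b1, Cyp27a1, Cyp7b1, Hsd3b7, Akr1d1, Amacr, Acox2, Slc27a5 and Baat. Their mRNA was measured by RNA-seq in the liver of C57BL/6 mice aged 12 weeks, in 4 groups of 2 samples: WT fasted overnight, HRD1Alb fasted overnight, WT fasted and then refed for 4 h, and HRD1Alb fasted and then refed for 4 h. HRD1Alb mice carry a floxed Hrd1 gene (Syvn1, an ER ubiquitin ligase of protein quality control) deleted by Albumin-Cre, which is active in hepatocytes from early liver development on. The study's controls, called WT in the labels, carried the floxed gene without Cre. Nothing in the labels says that the 2 samples of a group came from separate animals beyond their being separate samples, so p-values measure the spread between these samples only.

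Hepatocytes make bile acids from cholesterol by a classic and an alternative pathway. The classic pathway opens with 7α-hydroxylation of cholesterol by Cyp7a1, its rate-limiting enzyme, and Cyp8b1 adds the 12α-hydroxyl group that directs the product towards cholic acid. The alternative pathway opens with Cyp27a1, a mitochondrial sterol 27-hydroxylase, followed by the oxysterol 7α-hydroxylase Cyp7b1. Hsd3b7 and Akr1d1 then modify the sterol ring, Amacr and Acox2 act on the side chain in the peroxisome, and Slc27a5 (bile acyl-CoA synthetase) and Baat couple the product to taurine or glycine. The synthesis is known to be held down by bile acids through the nuclear receptor Fxr (Nr1h4), its target Shp (Nr0b2), and an intestinal hormone read in the liver by Fgfr4 and its co-receptor Klb.

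Of the 10 genes, 7 were lower in HRD1Alb liver than in WT liver when the genotype difference was averaged over the fasted and refed states, as were 7.78% of all tested genes: Cyp7a1, Cyp8b1, Cyp27a1, Cyp7b1, Hsd3b7, Slc27a5 and Baat. None was higher. Refeeding moved the enzymes of the classic pathway in opposite directions, Cyp7a1 up and Cyp8b1 down, and this passed the test in HRD1Alb liver. Akr1d1, Amacr and Acox2 passed the test in no comparison.

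The 8 libraries held 40210576 to 49117080 counts. The lowest count of any of the 10 genes was 744 (Cyp7b1, fasted HRD1Alb replicate 1; exact 95% Poisson interval 691 to 799 and 13.5 to 15.6 CPM, counting error only), and the highest was 80210. Levels are given as CPM, a gene's counts relative to the library's total, after TMM scaling, edgeR's correction for library composition, whose factors were 0.837 to 0.952 in WT and 0.992 to 1.22 in HRD1Alb libraries. Of 6 genes known to follow feeding, 3 rose and 3 fell on refeeding in WT liver, and 2 rose and 3 fell in HRD1Alb liver. Syvn1 itself was at 111 and 99.8 CPM in fasted WT liver and at 32.6 and 31.5 CPM in fasted HRD1Alb liver. After refeeding it was at 637 and 305 CPM in WT libraries and at 453 and 132 CPM in the libraries labelled refed HRD1Alb, so that replicate 1 of the latter lay above 1 WT library and Syvn1 does not separate the refed genotypes. These counts cover the whole gene, including any exons left in the deleted allele, and Syvn1 exons overlap those of Mrpl49 on the other strand. The library labelled refed HRD1Alb replicate 2 also stood apart from replicate 1 of its group: 3204 of the tested genes differed at least 2-fold between them, against 424 to 1141 in the other groups, and the difference fell with transcript length (Spearman rho = -0.591 across 12968 genes, a description since genes are not independent). Genotype differences after refeeding, and those averaged over both states, rest on these labels and libraries. So do refeeding differences in HRD1Alb liver and the interaction of genotype and feeding. The other comparisons use these libraries through the estimate of spread that all 8 libraries share.

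The genes lie on 8 chromosomes of the mouse genome (GRCm38, the build the submitters name as mm10, positions from GENCODE M21). Cyp7a1 is at chr4:6265612-6275633 and Baat at chr4:49489422-49506557, both on the minus strand. Cyp8b1, a gene of a single exon, is at chr9:121914356-121916305 on the minus strand. Cyp27a1 is at chr1:74713574-74737892 on the plus strand, and Cyp7b1 is at chr3:18071950-18243338 on the minus strand. Hsd3b7 (chr7:127800604-127803802, plus strand) and Slc27a5 (chr7:12988346-12998192, minus strand) are on the same chromosome. Akr1d1 is at chr6:37530173-37568815 and Amacr at chr15:10981756-10996626, both on the plus strand, and Acox2 is at chr14:8225511-8259353 on the minus strand. Hsd3b7 exons overlap those of Gm49388 on the same strand and of 9430064I24Rik on the other, so its counts are less certain than those of the other 9 genes, whose exons overlap no other gene.

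The RefSeq promoter table held 5 of the 10 genes: Cyp8b1, Cyp27a1, Hsd3b7, Akr1d1 and Acox2. The 250 bases before the transcription start are shown for Cyp8b1 and Cyp27a1, since both were lower in HRD1Alb liver, and in WT liver both refed samples lay below both fasted samples. Capitals mark matches to CAAAGTCCA (a form of the Hnf4a site), CAAGGNCA (a form of the Nr5a2 site) and TATAAA, searched on both strands and chosen after the Cyp8b1 sequence had been read.
Cyp8b1, chr9:121916306-121916555, minus strand: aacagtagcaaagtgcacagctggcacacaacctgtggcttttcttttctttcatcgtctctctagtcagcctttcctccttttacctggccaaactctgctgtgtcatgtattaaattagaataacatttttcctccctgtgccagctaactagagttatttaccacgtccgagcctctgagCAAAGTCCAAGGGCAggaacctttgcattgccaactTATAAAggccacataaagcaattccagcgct
Cyp27a1, chr1:74713285-74713534, plus strand: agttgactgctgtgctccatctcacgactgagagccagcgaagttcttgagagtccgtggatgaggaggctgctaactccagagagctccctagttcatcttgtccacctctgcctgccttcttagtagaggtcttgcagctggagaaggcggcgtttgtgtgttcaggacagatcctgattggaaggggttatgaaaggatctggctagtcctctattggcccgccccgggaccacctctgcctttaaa
The Cyp8b1 window held all 3, with CAAAGTCCA starting 67, CAAGGNCA starting 60 and TATAAA starting 31 bases before the transcription start, the first overlapping the second. The Cyp27a1 window and those of Hsd3b7, Akr1d1 and Acox2 held none of these letters. Among 32851 mouse promoter windows of the same length, 0.384% held CAAAGTCCA, 5.53% held CAAGGNCA and 12.4% held TATAAA.

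Divided by transcript length, the enzymes covered a wide range of levels. In fasted WT liver the order by mean CPM per kb of the longest transcript was Cyp8b1 (1009), Slc27a5 (461), Cyp27a1 (342), Hsd3b7 (301), Baat (228), Acox2 (95.1), Cyp7b1 (88.2), Cyp7a1 (76.8), Amacr (71.3) and Akr1d1 (52.0). The first 6 were separated from each of their neighbours among themselves by more than the range of their 2 samples. Below them Cyp7b1, spread from 21.0 to 155 CPM per kb, overlapped Acox2, Cyp7a1, Amacr and Akr1d1. In the libraries labelled refed HRD1Alb, Cyp8b1 was at rank 5 by mean (107.6 CPM per kb, samples at 66.3 and 149) and no longer at rank 1. It stood behind Slc27a5 (254), Hsd3b7 (203), Baat (166) and Cyp27a1 (160), and Cyp7b1 was last (10.7). The range of Cyp8b1 overlapped Acox2 (75.1 to 90.3), Amacr (63.1 to 88.3) and Cyp7a1 (60.5 to 72.5), so rank 5 holds for the means only.

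**Figure D1:**
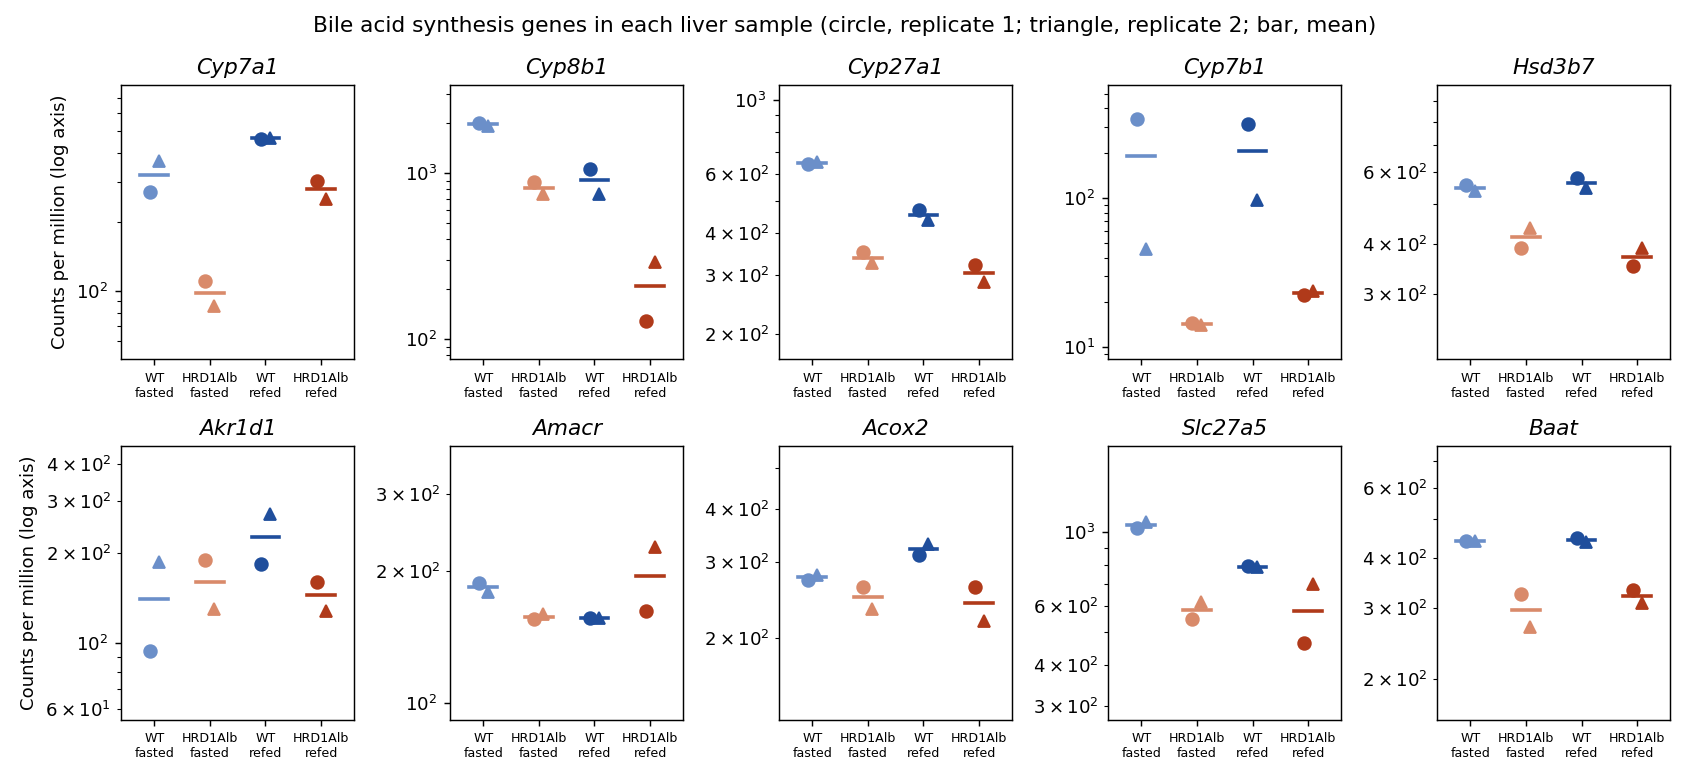
Level of each of the 10 genes in CPM after TMM scaling (log axis) in the 4 groups; circles are replicate 1, triangles replicate 2 and bars the mean of 2 samples. Cyp7a1 lies between 85.3 and 111 CPM in fasted HRD1Alb liver and between 271 and 370 CPM in fasted WT liver, while Amacr stays between 156 and 228 CPM in all 8 samples.

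Cyp7a1 was lower in fasted HRD1Alb liver and rose on refeeding. It was at 271 and 370 CPM in fasted WT, 111 and 85.3 CPM in fasted HRD1Alb, 461 and 468 CPM in refed WT and 303 and 252 CPM in refed HRD1Alb samples. HRD1Alb samples lay below WT samples in both feeding states, and refed samples lay above fasted samples in both genotypes. In the fasted state the genotype difference was -1.71 on the log2 scale (SE 0.22, a level 0.306 times that of WT), with an adjusted p of 0.0266 by edgeR's quasi-likelihood test with Benjamini-Hochberg adjustment over all 14328 genes, the test used throughout. This fasted call was lost on leaving out any single fasted sample or either refed WT sample. Leaving out 1 library gave fasted differences from -1.92 to -1.44. After refeeding the genotype difference was -0.74 (SE 0.22, adjusted p = 0.0655). Refeeding raised Cyp7a1 2.83-fold in HRD1Alb liver (log2 1.50, SE 0.22, adjusted p = 0.0117), a call lost without fasted HRD1Alb replicate 1 (adjusted p = 0.0826) or 2 (0.128). In WT liver the refed over fasted ratio was 1.45 (log2 0.54, 95% interval 0.03 to 1.04, adjusted p = 0.274). The test of the difference between these responses gave log2 0.97 (SE 0.31, adjusted p = 0.561), so the larger response in HRD1Alb liver did not pass it.

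Cyp8b1 fell on refeeding, and the refed HRD1Alb libraries held the least of it. Its level was 2000 and 1936 CPM in fasted WT, 887 and 746 CPM in fasted HRD1Alb, 1065 and 749 CPM in refed WT and 129 and 291 CPM in refed HRD1Alb samples. HRD1Alb samples again lay below WT samples in both states, and the fasted HRD1Alb and refed WT ranges overlapped. The genotype difference was -2.11 on the log2 scale after refeeding (SE 0.38, 0.231 times WT, adjusted p = 0.0210) and -1.27 in the fasted state (SE 0.37, adjusted p = 0.135). Leaving out the library labelled refed HRD1Alb replicate 1 gave -1.65 after refeeding and leaving out replicate 2 gave -2.82, both past the threshold. The call was lost without refed WT replicate 1 (adjusted p = 0.140) or 2 (0.109), without either fasted HRD1Alb sample (0.0548 each), and with the 4 refed libraries alone (0.129). Refeeding lowered Cyp8b1 to 0.257 times the fasted level in HRD1Alb liver (log2 -1.96, SE 0.38, adjusted p = 0.0239), a call lost on leaving out any single fasted sample or either refed WT sample (adjusted p from 0.0528 to 0.152). The WT difference was -1.12 (SE 0.37, adjusted p = 0.190). The difference between these responses was -0.84 (SE 0.52, adjusted p = 0.626).

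The ratio of Cyp8b1 to Cyp7a1 counts within a library does not depend on scaling between libraries. A difference between libraries that follows transcript length, as between those labelled refed HRD1Alb, can alter it. The Cyp8b1 transcript is 1950 nt and that of Cyp7a1 4172 nt. The ratio was 7.38 and 5.24 in fasted WT, 8.03 and 8.74 in fasted HRD1Alb, 2.31 and 1.60 in refed WT and 0.427 and 1.15 in refed HRD1Alb samples. All 4 refed samples lay below all 4 fasted samples. The HRD1Alb samples lay above the WT samples in the fasted state and below them after refeeding, without overlap, and this was not tested.

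**Figure D2:**
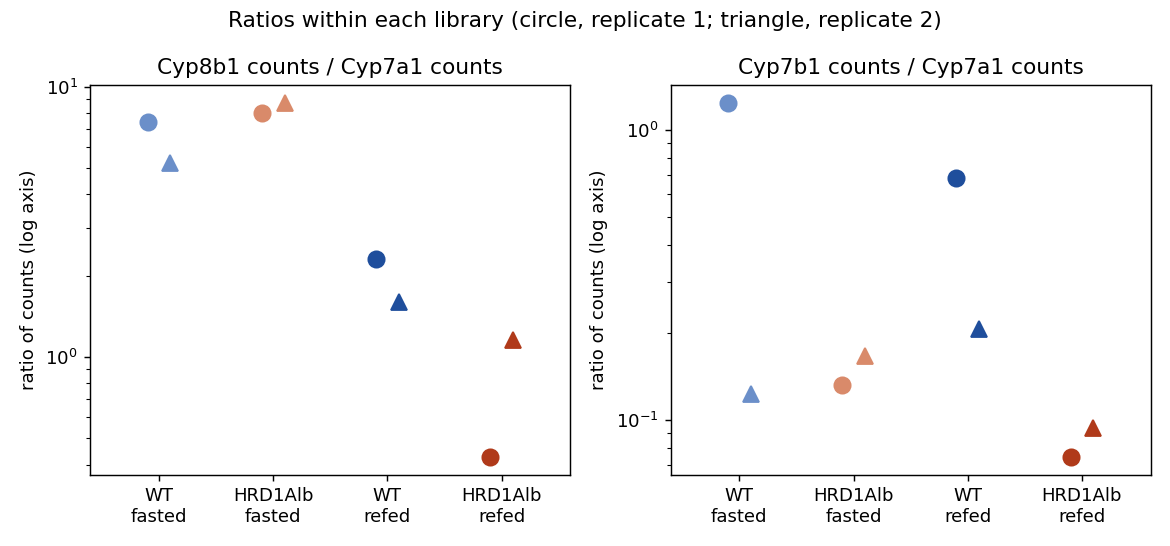
Ratio of Cyp8b1 to Cyp7a1 counts (left) and of Cyp7b1 to Cyp7a1 counts (right) within each library, on log axes; circles are replicate 1 and triangles replicate 2. The left ratio is between 5.24 and 8.74 in the fasted samples and between 0.427 and 2.31 in the refed samples, and the right one reaches 1.24 in 1 fasted WT sample and 0.123 in the other.

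Of the genes that open the alternative pathway, Cyp27a1 was the steadier between replicates. It was at 642 and 653 CPM in fasted WT, 350 and 325 CPM in fasted HRD1Alb, 467 and 436 CPM in refed WT and 322 and 285 CPM in refed HRD1Alb samples. HRD1Alb samples lay below WT samples in both states. The genotype difference was -0.94 in the fasted state (SE 0.15, 0.521 times WT, adjusted p = 0.0428) and -0.57 after refeeding (SE 0.15, adjusted p = 0.0512). With library size alone the fasted difference was -0.56 with an adjusted p of 0.114, and the call was lost. The fasted call was also lost with a replicate block (-0.94, adjusted p = 0.0531). It was lost as well on leaving out any single fasted sample or either refed WT sample. In WT liver refed samples lay below fasted samples, with a difference of -0.52 (SE 0.15, adjusted p = 0.141).

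Cyp7b1 had the largest genotype difference of the 10 genes and the widest spread between WT samples. Its level was 337 and 45.4 CPM in fasted WT, 315 and 96.5 CPM in refed WT, 14.5 and 14.2 CPM in fasted HRD1Alb and 22.6 and 23.8 CPM in refed HRD1Alb samples. All 4 HRD1Alb samples lay below all 4 WT samples, although the fasted WT samples differed 7.42-fold from each other. The difference was -3.73 in the fasted state (SE 0.93, adjusted p = 0.102) and -3.15 after refeeding (SE 0.91, adjusted p = 0.0639). The fasted difference was -1.66 without fasted WT replicate 1 and -4.52 without replicate 2, and the refed one was -2.06 without refed WT replicate 1 and -3.77 without replicate 2. Averaged over both states it was -3.44 (95% interval -4.96 to -1.92, adjusted p = 0.0141), a call lost without fasted HRD1Alb replicate 1 (adjusted p = 0.0812) or 2 (0.0713) or without refed WT replicate 1 (0.0527). Cyp7b1 is known to be higher in male than in female mouse liver. Other male-biased liver genes were taken from a list of 10 that does not hold Cyp7b1. They summed to 3196 to 5738 CPM in WT and to 799 to 1787 CPM in HRD1Alb samples. Averaged over both states 9 of the 10 were lower in HRD1Alb liver (median log2 -2.94), as were 7.78% of all tested genes. Female-biased liver genes summed to 3.17 to 36.7 CPM in WT and to 231 to 461 CPM in HRD1Alb samples. Of the 9 tested, 6 were higher (median log2 3.58), as were 1617 of all 14328 tested genes. In both WT groups replicate 1, the sample with more Cyp7b1, also had the higher male-biased and the lower female-biased sum. The labels do not give the sex of the mice; Y-linked genes were detected and Xist was near 0 in all 8 libraries. The part of these differences in the Cyp7b1 result was not tested.

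**Figure D3:**
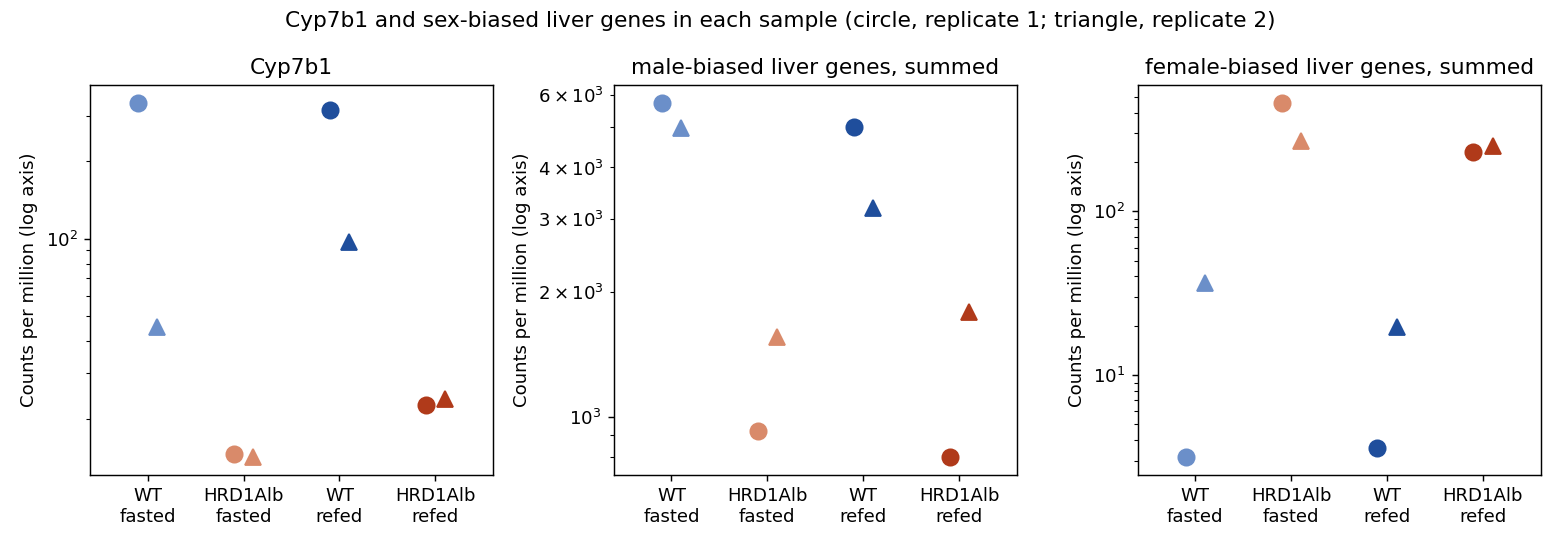
Cyp7b1 (left), the sum of 10 male-biased liver genes (middle) and the sum of 10 female-biased liver genes (right) in CPM (log axes) in each sample; circles are replicate 1 and triangles replicate 2. Cyp7b1 and the male-biased sum are lower in all 4 HRD1Alb samples than in all 4 WT samples, and the female-biased sum is higher.

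The ring-modifying enzymes did not move together. Hsd3b7, the 3β-hydroxysteroid dehydrogenase that acts on 7α-hydroxylated sterols, was at 560 and 539 CPM in fasted WT, 391 and 439 CPM in fasted HRD1Alb, 581 and 549 CPM in refed WT and 353 and 390 CPM in refed HRD1Alb samples. It was lower in HRD1Alb samples in both states without overlap. The difference was -0.61 after refeeding (SE 0.15, 0.657 times WT, adjusted p = 0.0467) and -0.41 in the fasted state (SE 0.15, adjusted p = 0.220). Without TMM factors the refed difference was -0.39 with an adjusted p of 0.115, and the call was lost. The call was also lost with no filter on low counts (adjusted p = 0.0538), with a replicate block (0.0572) and with the 4 refed libraries alone (0.220). Leaving out 1 library gave refed differences from -0.68 to -0.54. The call was lost without any single library except those labelled refed HRD1Alb. The difference averaged over both states (-0.51) lost its call in the same fits. Akr1d1, the 5β-reductase, was at 93.8 and 187 CPM in fasted WT, 190 and 130 CPM in fasted HRD1Alb, 184 and 270 CPM in refed WT and 160 and 128 CPM in refed HRD1Alb samples. Its fasted groups overlapped, and its genotype differences were 0.19 (95% interval -0.66 to 1.04) in the fasted state and -0.65 (95% interval -1.51 to 0.20) after refeeding, neither past the threshold. Averaged over both states it was -0.23 (adjusted p = 0.536).

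Neither side-chain enzyme passed the test. Amacr, the racemase that readies the side chain for oxidation, was at 188 and 179 CPM in fasted WT, 156 and 159 CPM in fasted HRD1Alb, 156 and 156 CPM in refed WT and 163 and 228 CPM in refed HRD1Alb samples. The HRD1Alb samples lay below WT in the fasted state and above WT after refeeding. Its genotype difference averaged over both states was 0.05 on the log2 scale (95% interval -0.26 to 0.36, adjusted p = 0.807). Acox2, the branched-chain acyl-CoA oxidase, was at 272 and 281 CPM in fasted WT, 263 and 234 CPM in fasted HRD1Alb, 313 and 331 CPM in refed WT and 262 and 218 CPM in refed HRD1Alb samples. It lay lower in HRD1Alb samples in both states, with an averaged difference of -0.29 (95% interval -0.55 to -0.02, adjusted p = 0.117).

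Both conjugation enzymes were lower in HRD1Alb liver averaged over feeding states, and neither passed the test in a single state. Slc27a5 was at 1035 and 1073 CPM in fasted WT, 549 and 615 CPM in fasted HRD1Alb, 790 and 784 CPM in refed WT and 464 and 698 CPM in refed HRD1Alb samples. Its averaged difference was -0.65 (SE 0.15, 0.638 times WT, adjusted p = 0.0271), and -0.36 with library size alone (adjusted p = 0.0497). Leaving out 1 library gave averaged differences from -0.81 to -0.52. The call was lost without any single library except those labelled refed HRD1Alb. Baat was at 442 and 441 CPM in fasted WT, 325 and 269 CPM in fasted HRD1Alb, 449 and 440 CPM in refed WT and 334 and 310 CPM in refed HRD1Alb samples, so it hardly differed between fasted and refed WT samples (log2 0.01, 95% interval -0.36 to 0.38). Its averaged genotype difference was -0.52 (SE 0.11, 0.697 times WT, adjusted p = 0.0214). With library size alone that difference was -0.22 (adjusted p = 0.251), and leaving out 1 library gave -0.60 to -0.46. The Baat call, too, was lost without any single library except those labelled refed HRD1Alb.

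**Figure D4:**
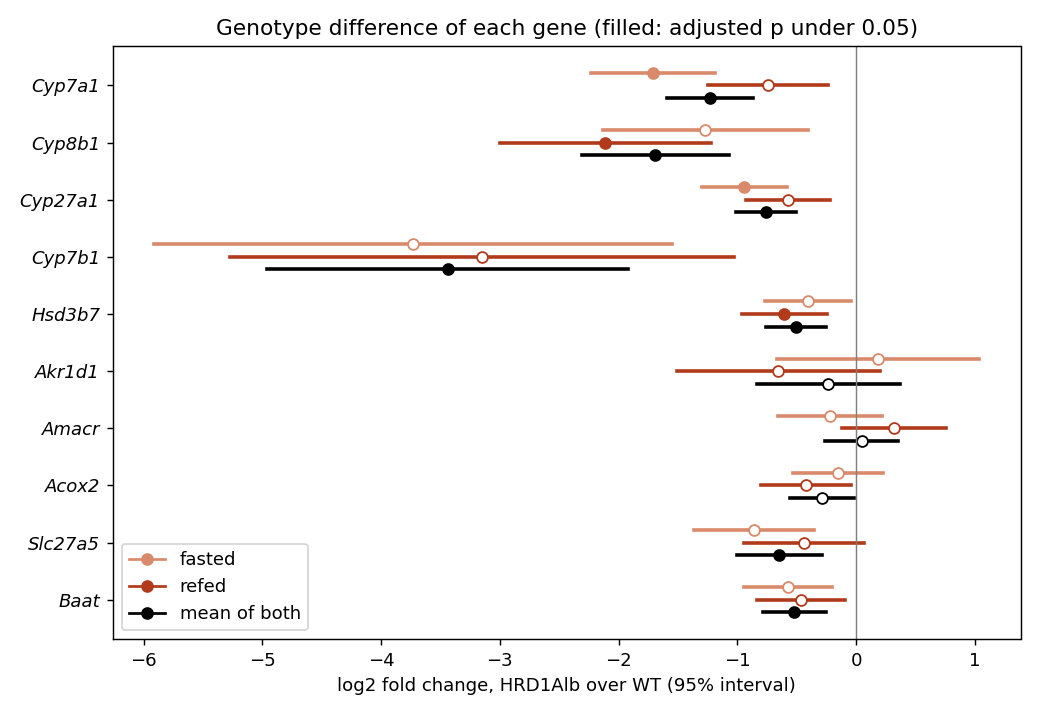
Genotype difference of each gene as log2 fold change of HRD1Alb over WT, with 95% intervals from the edgeR fit, for fasted liver, refed liver and their mean; filled points passed an adjusted p of 0.05. The mean of both states lies below 0 for 9 of 10 genes and is filled for 7, from -3.44 for Cyp7b1 to -0.51 for Hsd3b7.

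Counted over the comparisons, 2 of 10 members were lower in fasted HRD1Alb liver (Cyp7a1 and Cyp27a1) where 0.433% of all tested genes were. After refeeding 2 were lower (Cyp8b1 and Hsd3b7) against 4.84% of all genes, and averaged over both states 7 were lower against 7.78%. By range alone, 9 of 10 members were below WT without overlap in the fasted state (34.2% of all genes), 9 after refeeding (30.1%) and 8 in both (17.5%). In WT liver edgeR called 0 members changed by refeeding, against 2.61% of all genes; 3 (Cyp7a1, Cyp8b1 and Cyp27a1) had an unadjusted p under 0.05, limma-trend called 0, and DESeq2 called 2 (Cyp8b1 and Cyp27a1). In HRD1Alb liver 1 member rose on refeeding (5.43% of all genes) and 1 fell (5.05%). The interaction of genotype and feeding was called by edgeR for 0 members and 0% of genes; 1 member (Cyp7a1) had an unadjusted p under 0.05, limma-trend called 0 and DESeq2 called no member. These comparisons share samples with each other.

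The single-state counts depended on single libraries, and the averaged difference did so less. The fasted count of 2 became 0 without either fasted sample of either genotype or without either refed WT sample, and 7 without either library labelled refed HRD1Alb. The refed count of 2 became 0 without either fasted HRD1Alb or either refed WT sample, 7 without the library labelled refed HRD1Alb replicate 1 and 4 without replicate 2. The averaged count of 7 became 3 without either fasted HRD1Alb sample or without refed WT replicate 1, and 4 without either fasted WT sample or without refed WT replicate 2. The share of all tested genes called lower moved with these counts. In the fasted comparison it was 0% to 0.0204% where the count was 0 and 11.6% and 11.8% where it was 7. In the refed comparison it was 0% to 1.19% where the count was 0, 27.8% where it was 7 and 11.7% where it was 4. In the averaged comparison it was 1.17% to 2.70% where the count was 3 or 4. Cyp7a1, Cyp8b1 and Cyp27a1 kept an adjusted p under 0.05 for the averaged difference in all 16 alternatives fitted for it, at most 0.0297, 0.0484 and 0.0443 respectively.

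The size of the genotype difference also depended on how libraries were scaled. With library size alone, a setting added after the data were seen, the median of all genes moved from 0.01 to 0.31 (log2, averaged over both states), and the share of calls that were higher in HRD1Alb liver went from 59.2% to 91.8%. In the fasted state the median moved from -0.02 to 0.36 and that share from 68.0% to 94.7%, and after refeeding from 0.04 to 0.26 and from 59.4% to 87.5%. For WT refeeding the median moved from 0.0013 to 0.15 and the share of higher calls from 46.0% to 68.1%. An offset for transcript length, with TMM, gave shares of 53.1% in the fasted state, 50.3% after refeeding and 48.9% averaged over both. With library size alone 5 members were still lower in HRD1Alb liver averaged over both states (Cyp7a1 at -0.92, Cyp8b1 at -1.42, Cyp27a1 at -0.45, Cyp7b1 at -3.15 and Slc27a5 at -0.36), while Hsd3b7 (-0.21) and Baat (-0.22) no longer passed the test and Akr1d1 and Acox2 moved to 0.08 and 0.02.

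**Figure D5:**
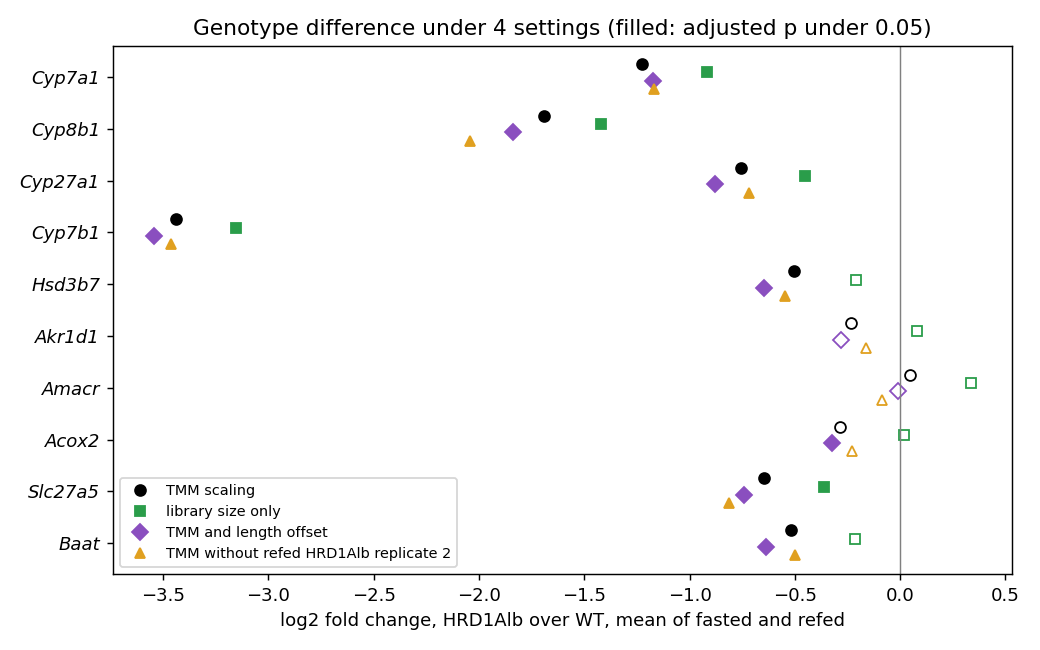
Genotype difference of each gene (log2, HRD1Alb over WT, mean of fasted and refed) with TMM scaling, with library size only, with TMM and a transcript length offset, and with TMM but without the library labelled refed HRD1Alb replicate 2; filled symbols passed an adjusted p of 0.05. Library size only moves every gene to the right. Cyp7a1, Cyp8b1, Cyp27a1, Cyp7b1 and Slc27a5 are filled in each setting that uses all 8 libraries, Slc27a5 narrowly with library size only (adjusted p = 0.0497). Fits without any other library are not drawn, so filled symbols do not show that a call holds without them.

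The sum of other abundant hepatocyte transcripts, most of it Alb, was also lower in HRD1Alb samples. Alb, Apoa1, Ttr, Apob, Cps1 and Ass1 summed to 108181 to 145348 CPM in WT and to 61733 to 99666 CPM in HRD1Alb samples. Averaged over both states 1 of the 6 (Apob) was called lower, as were 7.78% of all tested genes. The median averaged difference of the 6 was -0.59 beside -0.58 for the 10 members. That median moved to -0.38 without the library labelled refed HRD1Alb replicate 1, to -0.82 without replicate 2 and to -0.32 with library size alone, and after refeeding it was -0.35, or 0.07 without replicate 1. Single markers went the other way in single libraries: in the library labelled refed HRD1Alb replicate 2, Ttr (6569 CPM) and Apoa1 (12464 CPM) lay above both refed WT samples, and in fasted HRD1Alb replicate 1 Cps1 (6354 CPM) lay above both fasted WT samples. Ass1, a urea cycle enzyme, was at only 0.563 to 2.67 CPM in all libraries, unlike the other hepatocyte markers. Kupffer cell markers, 6 genes, summed to 73.7 to 87.9 CPM in WT and 181 to 410 CPM in HRD1Alb samples. Averaged over both states 6 of 6 were higher, as were 1617 of all 14328 tested genes. Stellate cell markers summed to 172 to 350 CPM in WT and 333 to 451 CPM in HRD1Alb samples, with 5 of 6 higher. Of the cholangiocyte, endothelial and lymphocyte markers, 6 genes each, 0, 0 and 1 were higher, and no gene of these 5 lists of other cells was at 0 in any group. In bulk liver, fewer hepatocytes and less of an mRNA per hepatocyte cannot be told apart, and the part of cell composition in the enzymes' difference was not tested. The median over all tested genes was 0.01.

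Of 19 further genes of bile acid synthesis, 18 were tested (Ch25h, the cholesterol 25-hydroxylase, was too low). In the fasted state 1 was lower in HRD1Alb liver and none higher, where 0.433% of all tested genes were lower. After refeeding and averaged over both states 6 were lower and none higher, where 4.84% and 7.78% of all tested genes were lower. The averaged median was -0.27. Scp2, the peroxisomal sterol carrier thiolase that shortens the side chain, was at 3274 and 3497 CPM in fasted WT, 1117 and 1152 CPM in fasted HRD1Alb, 3072 and 2958 CPM in refed WT and 771 and 1118 CPM in refed HRD1Alb samples. It was the 1 called in the fasted state (-1.58, SE 0.21, adjusted p = 0.0297) and was lower after refeeding as well (-1.67, SE 0.21, adjusted p = 0.0105). Slc27a2, a very long-chain acyl-CoA synthetase, Akr1c14, a 3α-hydroxysteroid dehydrogenase, and Cyp46a1, a cholesterol 24-hydroxylase at under 3 CPM, were lower averaged over both states, with differences of -0.74, -0.98 and -1.65. With library size alone the averaged count was 4 lower and 1 higher of 18, where 2.35% of all tested genes were lower and 3780 of 14328 higher.

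Among 14 regulators of the pathway, 0 were called in fasted liver by edgeR. There 5 had an unadjusted p under 0.05, as did 2630 of all 14328 tested genes. After refeeding 5 were lower (4.84% of all tested genes), and averaged over both states 5 were lower (7.78%). The medians of the 14 in fasted liver, after refeeding and averaged were -0.29, -0.65 and -0.46. Ppara, the fatty acid sensing nuclear receptor, was at 537 and 436 CPM in fasted WT, 325 and 361 CPM in fasted HRD1Alb, 219 and 227 CPM in refed WT and 74.6 and 63.7 CPM in refed HRD1Alb samples, with an averaged difference of -1.10 (SE 0.12, adjusted p = 0.00331). Klb, also lower, differed by -0.88 (adjusted p = 0.00610), Mafg, a repressor of Cyp8b1, by -0.49 (adjusted p = 0.0204) and Fgfr4 by -0.52 (adjusted p = 0.0248). Nr1h4 was the fifth. With library size alone the averaged count was 2 of 14, where 2.35% of all tested genes were lower. The 5 called after refeeding were Ppara, Klb, Mafg, Nr0b2 and Nr1d1, of which the last 2 were named after their values had been seen. Nr0b2 was at 11.8 and 15.5 CPM in fasted WT, 28.5 and 23.7 CPM in fasted HRD1Alb, 36.2 and 31.0 CPM in refed WT and 18.0 and 14.7 CPM in refed HRD1Alb samples. Thus HRD1Alb samples lay above WT in the fasted state (0.93, SE 0.21, adjusted p = 0.0830) and below WT after refeeding (-1.04, SE 0.21, adjusted p = 0.0285). The part of Nr0b2 and the other regulators in the levels of the enzymes was not tested.

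The genes whose log2 CPM followed an enzyme most closely over the 8 samples, among 11918 genes at a mean of at least 1 CPM, were Ap1b1, Gtf2h2 and Irgm1 for Cyp7a1 (Pearson r = 0.980, 0.979 and 0.978). For Cyp8b1 they were Slc17a8, Decr2 and Atg12 (r = 0.984, 0.980 and 0.980), and for Cyp7b1 they were Rarres1, Mup1 and Mup12 (r = 0.964, 0.962 and 0.960). The Mup genes are near-identical copies whose reads may be split between them. These values are descriptions over samples that share libraries and groups, with no test. None of the 3 lists held a gene of another, and Cyp7a1 and Cyp8b1 themselves had an r of only 0.05.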

How the data were processed

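The deposited files hold whole-number read counts per gene symbol, 1 file per library. The study's methods name ERANGE for counting, whereas the submitters' processing notes name cutadapt, STAR, HTSeq and DESeq2 with mm10; versions, annotation and strand setting are not given in the sources used here. Genes were kept by filterByExpr (minimum count 10) and tested with edgeR 4.0.16 (R 4.3.3): TMM, 1 coefficient per group over all 8 libraries, quasi-likelihood F test, Benjamini-Hochberg adjustment over all 14328 tested genes, called under 0.05. Intervals are 95%. The fit was tested on simulated data in which all genes had the same spread and no library deviated. That test does not cover the difference between the libraries labelled refed HRD1Alb. The 10 members and all other lists were chosen with earlier results of these data known. All 10 members were described. Of the other pathway enzymes and regulators, at most 4 each were picked by smallest averaged adjusted p among those called in a genotype comparison. Ch25h, Nr1h4, Nr0b2 and Nr1d1 were named outside this rule. Alternatives were RLE scaling, DESeq2 1.42.0, limma-trend 3.58.1 (prior count 1), no filter, the 4 libraries of a comparison alone, a replicate block, a transcript length offset (90.5% of tested genes had a length), each library left out and, added after the data were seen, library size only.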

Additional observations from a re-analysis of the deposited data

Results flagged for a closer look

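In 3 of the 42 tested members, further pathway enzymes and regulators, both HRD1Alb samples lay on one side of both WT samples in the fasted state and on the other side after refeeding, as they did in 5.70% of all tested genes. For Amacr the genotype difference was larger after refeeding by 0.54 on the log2 scale (SE 0.26), with an adjusted p of 0.601 for the interaction by edgeR, which ranged from 0.00519 (without the library labelled refed HRD1Alb replicate 1) to 0.904 over the alternatives. For Nr0b2, the repressor Shp, the change was -1.97 (SE 0.30, adjusted p = 0.523 by edgeR). For Nr1d1, a clock repressor, the change was -1.31 (SE 0.27, adjusted p = 0.544 by edgeR). None passed the adjusted threshold in the 8-library edgeR fit. On leaving out either library labelled refed HRD1Alb, calls for the interaction appeared among the 14 regulators. A range over the alternatives is given for Amacr only. Groups of 2 samples are too small to screen for single outlying samples.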

How the results depend on the processing

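The counts of members called, by edgeR over 8 libraries, were 2 (genotype, fasted), 2 (genotype, refed), 0 (refeeding, WT), 2 (refeeding, HRD1Alb), 0 (interaction) and 7 (genotype, averaged). DESeq2 gave 6 (fasted), 6 (refed) and 2 (refeeding, WT). The 4 libraries of a comparison alone gave 6 (fasted), 0 (refed), 2 (refeeding, WT) and 0 (refeeding, HRD1Alb). The replicate block gave 1 (fasted) and 1 (refed) and changed no other count of members by more than 1.5 times. Same-numbered samples shared deviations only weakly (r = 0.0161 to 0.179 over 6 pairs of groups) and nothing in the labels pairs them. The transcript length offset gave 7 (refed), and with the replicate block 6 (refed). Library size only gave 1 (fasted) and 1 (refed). Leaving out 1 library gave 0 to 7 (fasted), 0 to 7 (refed), 0 to 3 (refeeding, WT), 0 to 3 (refeeding, HRD1Alb), 0 to 2 (interaction) and 3 to 8 (averaged). Over all tested genes the fasted comparison had 194 calls by edgeR over 8 libraries, 1094 by DESeq2, 2033 with its 4 libraries alone, 323 without the filter, 119 with the replicate block, 778 with the length offset, 593 with both, and 887 with library size only. The refed comparison had 1709 calls, 3178 by DESeq2, 0 with its 4 libraries alone, and 2707 with the length offset (2631 with the block as well). Refeeding had 374 calls in WT liver, 1086 by DESeq2, 1882 with its 4 libraries alone, 837 with the length offset, 765 with the block as well, and 238 with library size only, and in HRD1Alb liver 1501, 2921 by DESeq2 and 0 with its 4 libraries alone. The interaction had 0 calls, 95 by DESeq2 and 2 without the filter, and the averaged difference 2732 and 4117 with library size only. Of 1000 single-gene values under an alternative, 0 turned a called direction, 62 lost and 61 gained a call, and 39 changed sign without a call on either side. With 2 samples a group, leaving 1 out assumes that the lone sample varies like the others. The causes of these shifts were not tested.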

Other observations

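Over the 8 samples, 34 of the 45 pairs of members had a positive Pearson r of log2 CPM, with a median of 0.530 and a range of -0.586 to 0.865. The 10 members summed to 4282 to 5841 CPM in WT and to 2512 to 3236 CPM in HRD1Alb samples, and Cyp8b1 made up 33.9% to 34.2% of that sum in fasted WT and 5.14% to 10.3% in the libraries labelled refed HRD1Alb.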
